A study of Homo sapiens with 8 samples.

Results

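The genes described here encode the receptors for type I and type II interferon (IFNAR1, IFNAR2, IFNGR1 and IFNGR2) and 4 feedback inhibitors of cytokine signaling (SOCS1, SOCS2, SOCS3 and CISH). They were taken as the 8 listed symbols in the gene table of Molm13 and the same identifiers in the table of THP1, and all 8 were found among the 57722 genes that the tables share. Molm13 and THP1 are known as human acute myeloid leukemia (AML) lines, both monocytic and with a rearranged MLL gene. Cells of each line expressed a doxycycline-inducible control short hairpin RNA (shCtrl) or a hairpin against the arginine methyltransferase PRMT9 (shPRMT9), and doxycycline was given to every group, controls included. Poly(A) RNA of each of the 4 groups was sequenced as 2 libraries, 8 in all. The labels do not say whether libraries 1 and 2 came from separate cultures or, for shPRMT9, from separate hairpins, so the p-values measure only the spread between these libraries, which may be technical.

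Type I interferons bind a receptor made of IFNAR1 and IFNAR2, which carry the kinases TYK2 and JAK1 and activate STAT transcription factors together with IRF9. Interferon-γ binds IFNGR1, and its accessory chain IFNGR2 completes a receptor that carries JAK1 and JAK2. SOCS proteins and CISH are themselves induced by STATs and close the loop. SOCS1 and SOCS3 inhibit the JAK kinases, whereas SOCS2 and CISH act mainly at cytokine receptors that signal through STAT5.

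Counts on genes ranged from 18720950 to 27356870 per library, and the biological coefficient of variation was 0.0201 in Molm13 and 0.0247 in THP1. *PRMT9* was counted 332 and 289 times in the Molm13 shCtrl libraries and 41 and 56 times with shPRMT9 (log2 fold change -2.68). In THP1, the counts were 317 and 352 against 60 and 68 (-2.29). The names of the libraries labelled THP1 also carry the letters OCI. *HOXA9* and *HOXA10* were expressed in both lines, whereas *MEIS1*, a partner of HOXA9 in MLL-rearranged leukemia, lay between 71.1 and 87.2 CPM in Molm13 and reached at most 0.364 CPM in THP1. *HOXB3* (5.14 to 8.22 CPM), *HOXB4* (5.71 to 6.695 CPM), *HOXB6* (0.648 to 1.48 CPM) and *HOXB7* (0.973 to 1.64 CPM) were present in the libraries labelled THP1 and at most at 0.264 CPM in Molm13, and *HOXB2*, *HOXB5*, *HOXB8* and *HOXB9* reached at most 0.204 CPM in either. The identity of the line was not tested beyond these markers, so THP1 means the label in all values given here. Of 9 myeloid and monocytic markers, 8 or 9 exceeded 1 CPM (counts scaled to a common library size) in every group, and *CD14* was below 1 CPM in Molm13 and in the THP1 controls. T cell and erythroid markers were below 1 CPM throughout (0 of 4 and 0 of 3 above it), epithelial and fibroblast markers reached it in 1 or 2 of 6 genes, and B cell markers in 1 of 5, *PAX5*. The summed level of the myeloid markers was 1282 and 1285 CPM in the Molm13 shCtrl libraries and 1878 and 1889 CPM with shPRMT9. In THP1 it was 2639 to 2661 CPM in controls and 3947 to 4103 CPM with shPRMT9. The gene *LYZ* made up most of this sum in THP1, at 1886 to 1889 CPM in controls and 3021 to 3173 CPM with shPRMT9, and rose in Molm13 by 0.66 on the log2 scale (FDR = 9.96e-28) from 633 and 634 CPM in controls. On the log2 scale, *CSF1R* rose by 2.06 in Molm13 and 1.03 in THP1, *ITGAM* by 1.95 and 1.15, and *CD68* by 1.18 and 0.78. *CD33* and *SPI1* also rose in both lines, and *CD14* rose in THP1 (2.40), each with FDR below 0.05. Not every marker rose: *MPO* fell by 0.56 on the log2 scale in Molm13 and by 0.82 in THP1 (FDR = 3.3e-13 and 2.2e-05), and *CEBPA* fell by 0.12 in THP1 (FDR = 0.0026). The part of this shift in the results below was not tested, and in bulk RNA a change in the share of cells of a kind and a change in RNA per cell cannot be told apart.

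After *PRMT9* knockdown (KD), 3 of the 4 receptor genes rose in Molm13 and 4 of 4 rose in THP1 (FDR below 0.05, edgeR). Over all tested genes, 33.4% were called higher in Molm13 and 19% in THP1. The small rise of *IFNGR1* in Molm13 lost its call with another test, DESeq2 (adjusted p = 0.094). *IFNGR2* rose by nearly the same log2 amount in both lines. *IFNAR1* rose more in Molm13, and *IFNGR1* and *IFNAR2* rose more in THP1. Of the feedback genes, *SOCS3* rose in both lines, *SOCS1* rose in Molm13, and *SOCS2* fell in both, from a level that differed 86.7-fold between the lines. The *SOCS2* fall in Molm13 was small (-0.069). With DESeq2, this fall lost its call (adjusted p = 0.12), as did the rises of *SOCS1* in Molm13 (0.13) and *SOCS3* in THP1 (0.17).

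The 8 members passed the filter on low counts in both lines. In Molm13, 5 rose, 1 fell and 2 did not pass the test, and the median log2 fold change of the 8 was 0.39 against 0.00047 over all 16446 genes tested. Taken without sign, the median change in Molm13 was 0.3859 for the members and 0.3855 over all genes, so their typical size of change was the same. Calls were common in this line: 33.4% of all tested genes were called higher and 33.5% lower. In THP1, the count was again 5 higher, 1 lower and 2 not called, with a median of 0.35 against -0.00064 over 16294 genes, of which 19% were called higher and 18.6% lower. Taken without sign, the THP1 medians were 0.54 for the members and 0.19 over all genes. Under the rule of the study's methods, which adds a fold change above 1.5 and more than 1 RPKM (CPM per kilobase of exon) in at least 1 library, 4 members were higher in Molm13 (*IFNAR1*, *IFNGR2*, *SOCS1* and *SOCS3*) and 0 lower, where 11.4% of tested genes were higher and 11.3% lower. In THP1, 3 were higher by this rule (*IFNGR1*, *IFNGR2* and *SOCS3*) and 0 lower, where 3.83% of genes were higher and 2.39% lower. *IFNAR1*, *IFNGR1*, *IFNGR2* and *SOCS3* were called higher in both lines and *SOCS2* lower in both, against 11.5% and 10.8% of the 13476 genes tested in both.

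**Figure D1:**
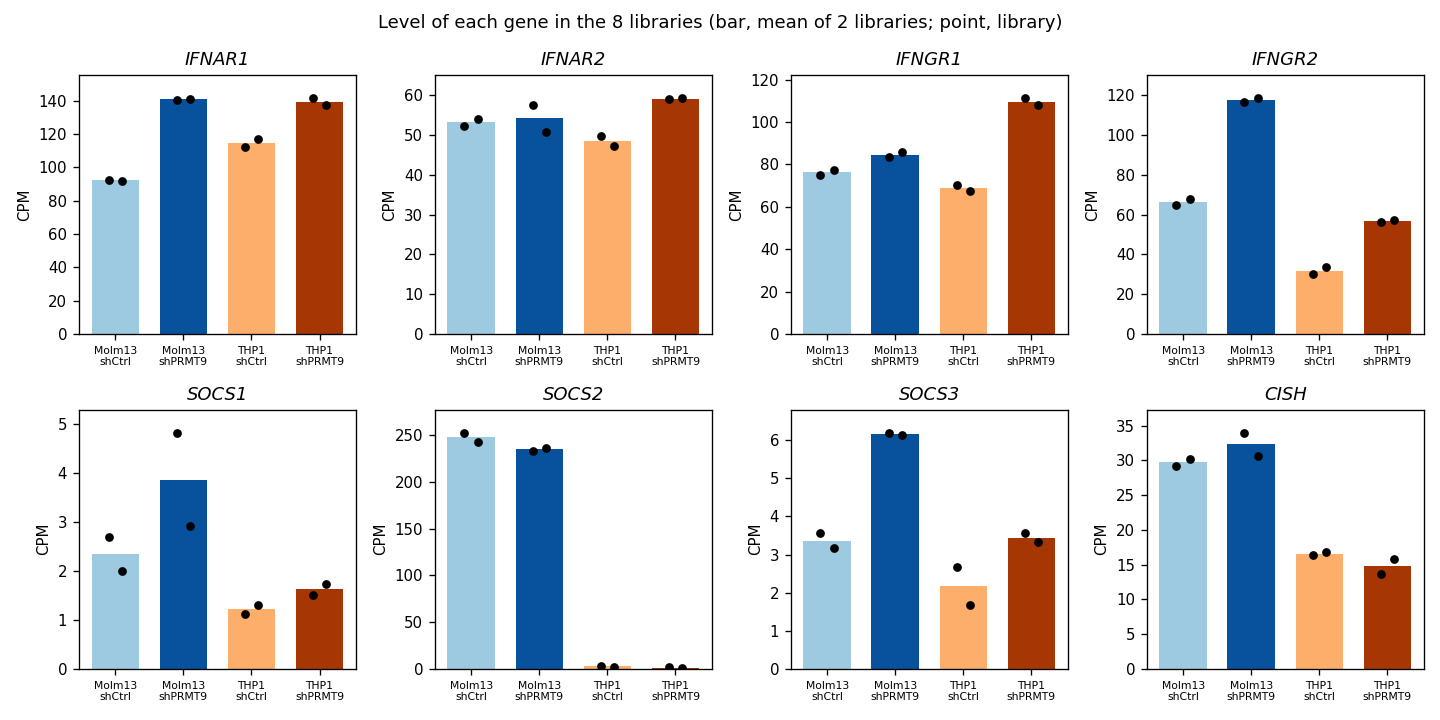
CPM of the 8 genes in each library, with bars for the mean of 2 libraries and points for libraries, on an axis that starts at 0 and differs between panels. The shPRMT9 libraries lie above the shCtrl libraries for IFNAR1, IFNGR1, IFNGR2, SOCS1 and SOCS3 in both lines, and SOCS2 is near 0 only in THP1.

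*IFNAR1*, the chain of the type I receptor that binds TYK2, lies at chr21:33324477-33359862 on the plus strand (GRCh38). In Molm13, it was at 92.8 and 91.97 CPM in shCtrl and at 140.4 and 141.4 CPM with shPRMT9. The THP1 libraries stood at 112 and 117 CPM in shCtrl and at 141.5 and 137 CPM with shPRMT9. The knockdown libraries were higher in both lines, without overlap, and the 2 lines reached a similar level from different starting points. The log2 fold change was 0.62 ± 0.036 (SE) in Molm13 (FDR = 2.2e-19) and 0.28 ± 0.039 in THP1 (FDR = 1.5e-06). The difference between these changes, THP1 minus Molm13, was -0.33 ± 0.054 (FDR = 1.8e-07).

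*IFNAR2*, the JAK1-binding chain that has the higher affinity for the ligand, lies upstream at chr21:33229901-33265675 on the same strand. Its Molm13 libraries stood at 52.4 and 54.0 CPM in shCtrl and at 57.5 and 50.9 CPM with shPRMT9, so the groups overlapped. The log2 fold change there was 0.032, with a 95% interval from -0.076 to 0.14 (FDR = 0.61). In THP1, the level went from 49.7 and 47.1 CPM to 59.0 and 59.2 CPM, a log2 fold change of 0.28 ± 0.052 (FDR = 7.5e-05). The change was larger in THP1 by 0.26 ± 0.076 (FDR = 0.0025). This difference lost its call without the second Molm13 shCtrl library (0.20, FDR = 0.063), the second Molm13 shPRMT9 library (0.13, FDR = 0.28) or the second THP1 shCtrl library (0.19, FDR = 0.067). In GENCODE release 29, 46.8% of the exon bases of *IFNAR2* are shared with another gene of the same strand that was listed at 0 in every library, and 41.4% with *IL10RB-AS1* on the opposite strand (43 to 108 counts), so its level is uncertain.

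*IFNGR1* encodes the ligand-binding chain of the interferon-γ receptor and lies at chr6:137197484-137219449 on the minus strand. Its level rose little in Molm13, from 75.1 and 77.5 CPM to 83.3 and 85.7 CPM. It rose further in THP1, from 70.1 and 67.4 CPM to 111 and 108 CPM, and the THP1 knockdown libraries held the highest level of this gene among the 8. The log2 fold change was 0.16 ± 0.042 in Molm13 (FDR = 0.0013), where the call was lost with DESeq2 (adjusted p = 0.094), and 0.67 ± 0.044 in THP1 (FDR = 6.5e-13). The difference of 0.53 ± 0.061 (FDR = 2.6e-12) was the largest rise of THP1 over Molm13 among the members.

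*IFNGR2*, the accessory chain that brings in JAK2, lies at chr21:33402896-33479348 on the plus strand. In Molm13, it stood at 64.7 and 67.9 CPM in shCtrl and at 117 and 118 CPM with shPRMT9. In THP1, it stood at 29.9 and 33.5 CPM in shCtrl and at 56.1 and 57.3 CPM with shPRMT9. Knockdown libraries were higher in both lines, and the THP1 knockdown libraries still lay below the Molm13 controls. The log2 fold change was 0.83 ± 0.041 in Molm13 (FDR = 3.9e-22) and 0.83 ± 0.059 in THP1 (FDR = 2.9e-12), and 11.5% and 5.09% of tested genes had a higher value in the respective line. The difference between the lines was 0.013, with a 95% interval from -0.127 to 0.154 (FDR = 0.97). *TMEM50B*, which overlaps the gene on the opposite strand without shared exons in GENCODE release 29, had log2 fold changes of -0.24 (FDR = 0.0021) and -0.016 (FDR = 0.88). The RefSeq promoter window of *IFNGR2* (250 bases before to 50 after the start, GRCh38.p14) held 1 match to the NF-κB motif, shown because NF-κB is a known inducer of cytokine signaling genes, at -99 to -90 from the start and in a stretch annotated as exon. This motif was present in 9.08% of 35116 such windows.

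IFNGR2 match: GGAAAGTCCC

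**Figure D2:**
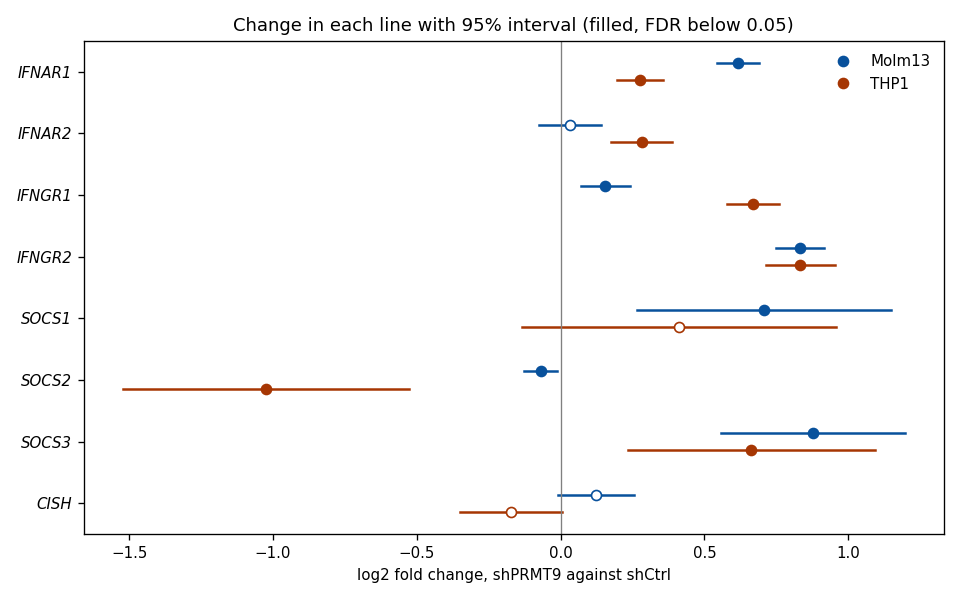
Log2 fold change (x axis) of each gene (y axis) for shPRMT9 against shCtrl in Molm13 and THP1, with 95% intervals and filled points for FDR below 0.05. IFNGR2 has nearly equal values of 0.83 in both lines, whereas IFNAR1, IFNGR1 and SOCS2 are apart.

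At the RNA level, the balance of the receptor genes differed between the Molm13 groups. These libraries do not measure the receptor proteins. Per exon length, the ratio of *IFNGR2* to *IFNGR1* RPKM was 0.748 and 0.761 in the Molm13 shCtrl libraries and 1.21 and 1.199 with shPRMT9 (higher in 2 of 2 libraries). In THP1, the ratio was 0.370 and 0.431 in shCtrl and 0.439 and 0.460 with shPRMT9. The ratio of *IFNAR2* to *IFNAR1* RPKM went from 0.771 and 0.801 to 0.560 and 0.491 in Molm13. In THP1, it was 0.605 and 0.550 in shCtrl and 0.569 and 0.589 with shPRMT9, with overlap. Whether a ratio exceeds 1 depends on the exon lengths used: with those of GENCODE release 29, an alternative chosen after seeing the data, the Molm13 ratio of *IFNGR2* to *IFNGR1* was 1.11 and 1.13 in shCtrl and 1.81 and 1.78 with shPRMT9, and the change between groups is the same. The summed RPKM of the 4 receptor genes went from 78.3 ± 1.60 (SD, n = 2) to 106.6 ± 0.1499 in Molm13 and from 66.1 ± 0.228 to 96.8 ± 0.977 in THP1. These ratios and sums were not tested on their own, and their groups did not overlap except where stated.

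**Figure D3:**
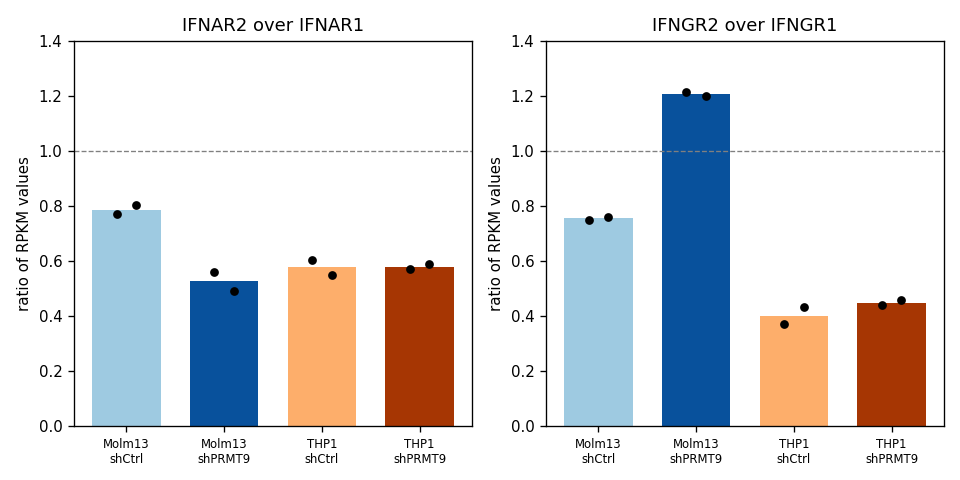
Ratio of RPKM values within each receptor (y axis, from 0) by group, with bars for the mean of 2 libraries, points for libraries and a dashed line at 1. The ratio of IFNGR2 to IFNGR1 is higher with shPRMT9 in Molm13, at 1.21 and 1.199 against 0.748 and 0.761, with exon lengths of the deposited table.

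*SOCS1*, the JAK inhibitor that limits both interferon receptors most strongly, lies at chr16:11254405-11256179 on the minus strand. It was scarce, with 55 and 39 counts in the Molm13 shCtrl libraries and 91 and 62 with shPRMT9. The THP1 counts were 29 and 36 in shCtrl and 38 and 43 with shPRMT9. Levels in Molm13 went from 2.69 and 1.99 CPM to 4.81 and 2.91 CPM, and in THP1 from 1.13 and 1.30 CPM to 1.52 and 1.74 CPM. Knockdown libraries were above the controls in both lines, though the lower Molm13 knockdown library was only slightly above the higher control. Molm13 showed a log2 fold change of 0.71 ± 0.22 (FDR = 0.0042). Without the first shPRMT9 library it was 0.32 (FDR = 0.32), and with DESeq2 the adjusted p was 0.13. In THP1, the value was 0.41 with an interval from -0.14 to 0.96 (FDR = 0.24), and the difference between the lines was -0.28, from -0.98 to 0.41 (FDR = 0.58).

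The *SOCS1* promoter, where interferon regulatory factors are known to act, is shown because it was the one member promoter with a match to the interferon-response letters. Matches to GAAANNGAA on either strand were present in 8.11% of 35116 RefSeq promoter windows of 300 bases. The stretch below is the 250 bases before the start, chr16:11256205-11256454, minus strand (GRCh38.p14). Capitals mark GAAANNGAA at -113 to -105 from the start and an NF-κB match at -67 to -58.
SOCS1 promoter: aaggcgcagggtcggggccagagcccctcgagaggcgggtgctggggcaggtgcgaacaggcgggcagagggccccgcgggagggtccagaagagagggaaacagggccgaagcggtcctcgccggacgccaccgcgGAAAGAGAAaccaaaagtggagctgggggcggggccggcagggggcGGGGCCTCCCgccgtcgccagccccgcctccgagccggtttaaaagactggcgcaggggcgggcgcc

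*RMI2*, which overlaps *SOCS1* on the opposite strand without shared exons in GENCODE release 29, fell by 0.58 on the log2 scale in Molm13 and by 0.55 in THP1 (FDR = 6.9e-06 and 1.3e-05).

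*SOCS3* inhibits JAKs at receptors that contain gp130 (IL6ST) and lies at chr17:78356778-78360077 on the minus strand. Its counts were 73 and 62 in the Molm13 controls and 117 and 131 with shPRMT9, and 69 and 46 in the THP1 controls and 89 and 82 with shPRMT9. The levels were 3.58 and 3.16 CPM against 6.19 and 6.15 CPM in Molm13, and 2.69 and 1.66 CPM against 3.55 and 3.32 CPM in THP1. No knockdown library reached down to its controls. The log2 fold change of 0.88 ± 0.16 (FDR = 4.8e-06) was the highest of the members in Molm13, where 10.8% of tested genes had a higher value. The THP1 value was 0.66 ± 0.21 (FDR = 0.013). That call was lost without the second shCtrl library (0.34, FDR = 0.27) and with DESeq2 (adjusted p = 0.17). The difference between the lines was -0.20, from -0.72 to 0.32 (FDR = 0.61). The 2 promoter windows of *SOCS3* held 0 matches to the 3 motifs searched.

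*CISH*, a feedback inhibitor of STAT5-coupled receptors, lies at chr3:50606490-50611831 on the minus strand. It was at 29.2 and 30.2 CPM in the Molm13 controls and at 33.9 and 30.7 CPM with shPRMT9. THP1 held less, 16.3 and 16.7 CPM in shCtrl and 13.7 and 15.8 CPM with shPRMT9. The groups did not overlap, yet they were apart by little, upward in Molm13 and downward in THP1. Neither change passed the test. The log2 values were 0.12 in Molm13, with an interval from -0.0076 to 0.26 (FDR = 0.090), and -0.17 in THP1, from -0.35 to 0.0045 (FDR = 0.12). Each passed with 1 library left out, the second shPRMT9 library in Molm13 (0.21, FDR = 0.020) and the second shPRMT9 library in THP1 (-0.28, FDR = 0.027). The difference between the lines, -0.29 ± 0.11, passed (FDR = 0.029). It did not pass with DESeq2 (adjusted p = 0.081) or without the first Molm13 shCtrl library (-0.29, FDR = 0.056), the first Molm13 shPRMT9 library (-0.24, FDR = 0.12) or the first THP1 shPRMT9 library (-0.21, FDR = 0.16). *MAPKAPK3*, which overlaps the gene on the opposite strand, had log2 fold changes of -0.35 (FDR = 2.8e-11) and -0.087 (FDR = 0.097). They share 0 exon bases in GENCODE release 29, which gives *CISH* 2226 exon bases where the deposited table gives 5112, so shared exons in the authors' annotation cannot be told.

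The *CISH* promoter is shown because STAT5 acts through clustered sites there, and it was the one member window with STAT letters. It held 4 matches to the palindrome TTCNNNGAA, at -241 to -233, -230 to -222, -129 to -121 and -112 to -104 from the start. At least 1 match was present in 7.66% of the 35116 windows. The stretch printed is chr3:50611832-50611907, minus strand (GRCh38.p14), the longest part of the window before the start with no annotated exon, and its capitals mark the last 2 matches.
CISH promoter: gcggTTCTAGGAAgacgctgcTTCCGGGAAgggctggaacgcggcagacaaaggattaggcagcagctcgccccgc
CISH match at -241: TTCCTGGAA
CISH match at -230: TTCTTGGAA

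Of the 8 members, 6 had 9 promoter windows between them in the RefSeq table, and *IFNAR2* and *SOCS2* had none. STAT letters were found in 1 of the 9 windows, GAAANNGAA in 1 and the NF-κB motif in 3, of which the third lay in a window of *IFNGR1*. A match is a description of the letters and not of binding.

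*SOCS2*, which restrains growth hormone receptor signaling and is induced by STAT5, lies at chr12:93569814-93583487 on the plus strand. In Molm13, it stood at 252 and 243 CPM in shCtrl and 233 and 236 CPM with shPRMT9. In THP1, it was at 3.43 and 2.31 CPM in shCtrl and at 1.52 and 1.30 CPM with shPRMT9, from 88 and 64 counts and from 38 and 32. The knockdown libraries were lower in both lines, narrowly in Molm13. In Molm13, the log2 fold change was -0.069 ± 0.028 (FDR = 0.030). This small value lost its call with DESeq2 (adjusted p = 0.12), in the fit of all 8 libraries (FDR = 0.056) and without the first shCtrl (-0.051, FDR = 0.18), the first shPRMT9 (-0.053, FDR = 0.17) or the second shPRMT9 library (-0.064, FDR = 0.099). In THP1, it was -1.02 ± 0.24 (FDR = 0.0012), and 98.6% of tested genes had a higher value, though the RPKM stayed below 1 in every library. The difference between the lines was -0.94 ± 0.20, a larger fall in THP1 (FDR = 4.2e-05). *SOCS2-AS1*, which shares 3.83% of the exon bases of *SOCS2* on the opposite strand, rose in Molm13 (0.28, FDR = 0.0015) and fell in THP1 (-1.05, FDR = 0.037). The strand setting of the counting is not given in the sources used here, so reads of *SOCS2* and its antisense partner cannot be told apart in the shared bases.

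The knockdown libraries lay wholly above the controls for 6 members in Molm13 and below for 1, where 41.2% and 40.8% of tested genes did so. In THP1, they lay above for 6 members and below for 2, against 33% and 33% of tested genes. The difference between the lines passed the test for 5 members. It was positive (THP1 higher) for *IFNAR2* and *IFNGR1* and negative for *IFNAR1*, *SOCS2* and *CISH*, where 22.8% of 19288 genes were called positive and 19.4% negative. The *PRMT9* difference itself was 0.40 ± 0.22 (FDR = 0.15).

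In control cells, the members differed between the lines before any knockdown. *IFNAR1* was higher in THP1 (log2 difference 0.31 ± 0.039) and the other 7 were lower, against 40.1% of genes called higher and 42.7% lower. *SOCS2* was 86.7-fold lower in THP1, a log2 difference of -6.44 ± 0.067 (FDR = 4.5e-89), a gap that 9% of tested genes exceeded downward. The other falls were of -1.06 ± 0.054 for *IFNGR2*, -0.94 ± 0.26 for *SOCS1*, -0.84 ± 0.077 for *CISH*, -0.64 ± 0.20 for *SOCS3*, -0.15 ± 0.045 for *IFNGR1* and -0.14 ± 0.054 for *IFNAR2*. Those of *IFNAR2*, *IFNGR1* and *SOCS3* no longer passed without the second THP1 shCtrl library (FDR = 0.27, 0.076 and 0.19), and those of *IFNAR2* and *IFNGR1* also not without the second Molm13 shCtrl library (FDR = 0.18 and 0.056). Each line came in a table of its own, with 57992 genes for Molm13 and 58174 for THP1. The line and any difference in library preparation, sequencing, annotation or read counting therefore cannot be told apart here. RPKM values of THP1 used the exon lengths given for Molm13.

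Per exon length, the order of the members in Molm13 shCtrl was *SOCS2* (36.5 RPKM), *IFNGR1* (29.7), *IFNGR2* (22.4), *IFNAR1* (14.7), *IFNAR2* (11.5), *CISH* (5.81), *SOCS1* (1.91) and *SOCS3* (1.23), and no neighbours overlapped. With shPRMT9, *IFNGR2* (39.7 RPKM) moved ahead of *SOCS2* (34.6) and *IFNGR1* (32.9), and the rest kept their places. In THP1 shCtrl, *IFNGR1* (26.7 RPKM) came before *IFNAR1* (18.2), *IFNGR2* (10.7), *IFNAR2* (10.5), *CISH* (3.24), *SOCS1* (0.992), *SOCS3* (0.796) and *SOCS2* (0.424). There *IFNGR2* and *IFNAR2* overlapped, as did *SOCS1* and *SOCS3*. With these lengths, THP1 cells with shPRMT9 had the same order, and *SOCS1* and *SOCS3* overlapped again, with *IFNGR1* at 42.7 RPKM and *SOCS2* at 0.208, and *IFNGR2* (19.2) no longer overlapped *IFNAR2* (12.8). *SOCS2* stood first of the 8 in Molm13 controls and last in THP1. These 2 places were the same with the exon lengths of GENCODE release 29, whereas *CISH* then stood at 13.4 RPKM in Molm13 shCtrl, ahead of *IFNAR2* (12.2), and *IFNGR2* (29.1) ahead of *IFNGR1* (25.9). *SOCS1* (1.30 RPKM) and *SOCS3* (1.23) then overlapped in Molm13 shCtrl. With shPRMT9 in Molm13, *SOCS3* (2.26) ranked above *SOCS1* (2.15), also with overlap. In THP1, *SOCS3* then ranked above *SOCS1* in both groups, and with shPRMT9, *IFNGR2* (24.9 RPKM) ranked above *IFNAR1* (22.7).

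**Figure D4:**
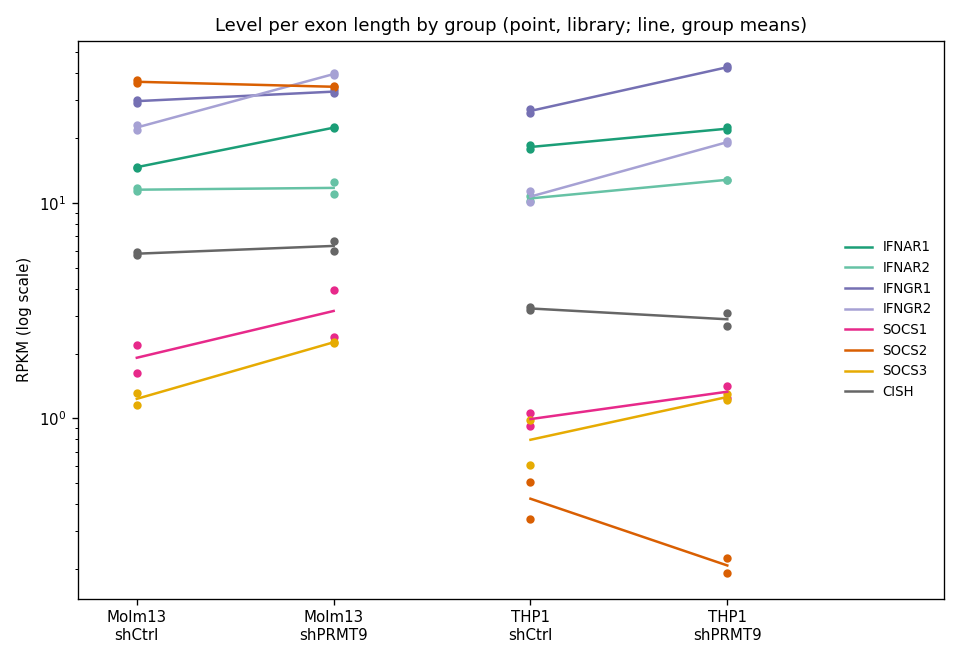
RPKM of the 8 genes on a log axis in the 4 groups, with points for libraries and lines joining the group means of a line. With exon lengths of the deposited table, IFNGR2 goes from 22.4 to 39.7 RPKM in Molm13, past IFNGR1 and SOCS2, and SOCS2 lies lowest of the 8 in THP1.

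The interferon genes themselves were hardly detected. Of 21 ligand genes, 15 had 0 counts in every library, which allows up to 3 counts, or 0.1097 to 0.160 CPM at these depths, counting error only. None had enough counts for the test in either line, and the highest count was 10. *IFNB1*, which encodes interferon-β, had 0 and 1 counts in the Molm13 controls and 3 and 2 with shPRMT9, and 1 and 1 in the THP1 controls and 10 and 8 with shPRMT9. *IFNL1* had 1 and 6 counts in the THP1 shPRMT9 libraries and 0 in the other 6.

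Highest and lowest, for the lists of other pathway genes, are among genes with FDR below 0.05. Of 7 partners and relatives of the interferon receptors, 3 of the 4 testable genes rose in Molm13 and 3 of 5 in THP1, and 0 fell, where 33.4% of all genes tested were called higher in Molm13 and 19% in THP1. *IL10RA*, the ligand-binding chain of the IL-10 receptor, had the highest value in both, 1.44 in Molm13 and 1.11 in THP1 (log2, FDR = 2.2e-19 and 5.7e-08). *IL10RB*, the chain shared by the IL-10 and interferon-λ receptors, was chosen after its values were seen, since it neighbours *IFNAR2*. It rose by 0.86 in Molm13 (FDR = 4.2e-18) and 0.34 in THP1 (FDR = 1.4e-06).

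Of 12 JAK and STAT genes, with *IRF9*, 10 rose and 2 fell in Molm13, with a median of 0.49, and 9 rose and 1 fell in THP1, with a median of 0.40, against 33.4% of all genes higher and 33.5% lower in Molm13, and 19% and 18.6% in THP1. *IRF9*, a DNA-binding component of the type I interferon response, had the highest value in Molm13 (1.91, FDR = 8.3e-13). *STAT5B* was the lowest called gene in both (-0.30 and -0.18, FDR = 1.8e-06 and 0.010). *STAT5A*, chosen after its values were seen, rose by 0.82 in Molm13 (FDR = 5.9e-15) and 0.71 in THP1 (FDR = 8.5e-05). The 3 kinases of the interferon receptors were chosen after their values were seen. *JAK1* rose by 0.42 in Molm13 and 0.15 in THP1, *TYK2* rose by 0.18 and 0.39, and *JAK2* had -0.20 in Molm13 and 0.15 in THP1, with an FDR of at most 0.0076 for each.

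The remaining SOCS genes and the partners of the SOCS box, a segment that recruits an elongin and cullin ubiquitin ligase, were mostly lower in Molm13. There 7 of 10 fell and 1 rose, with a median of -0.25, and in THP1, 3 fell and 1 rose, with a median of -0.077, against 33.5% of all genes called lower in Molm13 and 18.6% in THP1. *SOCS4* had the lowest value in Molm13 (-1.01, FDR = 2.3e-19) and *RNF7*, a RING subunit of the ligase, the highest (0.40, FDR = 7.2e-07). *SOCS5* had the lowest value in THP1 (-0.38, FDR = 6.1e-05) and *CUL2*, a cullin, the highest (0.26, FDR = 1.4e-05).

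Other brakes on the pathway moved in both directions, with 5 higher and 6 lower of 12 in Molm13 and 5 higher and 3 lower of 11 in THP1, in a background of 33.4% higher and 33.5% lower over all genes in Molm13, and 19% and 18.6% in THP1. *SH2B3* (LNK), an adaptor that restrains JAK2, was highest in Molm13 (0.94, FDR = 5.1e-24) and *LNX1* lowest (-0.94, FDR = 0.018). *LNX1* was scarce, with at most 38 counts in a library. Its Molm13 controls were apart, at 0.918 and 1.86 CPM, against 0.688 and 0.751 CPM with shPRMT9. *USP18*, which binds IFNAR2 and displaces JAK1, was highest in THP1 (3.01, FDR = 3.9e-22), and *PIAS3*, an inhibitor of STAT3, lowest (-0.52, FDR = 4.3e-06). *USP18* rose more in THP1 than in Molm13, by 2.25 (FDR = 1.4e-17).

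Receptors that SOCS proteins and CISH are known to restrain were mostly higher in Molm13, where 6 of 8 testable genes were higher and 1 lower, and were mostly lower or not called in THP1, where 1 of 10 was higher and 5 were lower. The shares over all genes were 33.4% higher and 33.5% lower in Molm13, and 19% and 18.6% in THP1. The counts of the lines cover partly different genes. *KIT* was testable only in Molm13, and *CSF2RA*, *IL3RA* and *GHR* only in THP1, where *IL3RA* (-0.64, FDR = 9.8e-05) and *GHR* were among the falls. *OSMR*, the oncostatin M receptor, was highest in Molm13 (2.51, FDR = 1.1e-10), and *IL6R* was lowest (-0.33, FDR = 6.0e-15). *IL6ST* (gp130) was the highest called gene in THP1 (0.64, FDR = 1.4e-12), where *OSMR* had 0.88 without passing (FDR = 0.17), and *GHR*, the growth hormone receptor, was lowest (-0.75, FDR = 0.035). Of 11 such genes tested for a difference between the lines, the change was lower in THP1 for 6 and higher for 2. Over all genes, 19.4% were called lower and 22.8% higher in this test. Among the 6, *KIT* and *OSMR* reached at most 0.434 and 0.526 CPM in THP1.

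STAT5 target genes were called about as often as all genes, with 3 higher and 3 lower of 8 in Molm13 (33.4% and 33.5% of all genes) and 1 higher and 1 lower of 7 in THP1 (19% and 18.6%). *BCL6*, a transcriptional repressor, was highest in both (0.88 and 0.80, FDR = 1.0e-07 and 1.2e-06). *OSM*, which encodes oncostatin M, was lowest in Molm13 (-0.58, FDR = 0.016), and *MCL1*, an anti-apoptotic gene, was the lowest called gene in THP1 (-0.31, FDR = 9.1e-09), where *OSM* had -0.55 without passing (FDR = 0.15). Among 10 interferon-induced genes taken for reference, 8 of 9 rose in Molm13, led by *IFIT1* (4.04, FDR = 4.2e-33), and 9 of 10 rose in THP1, led by *GBP1* (3.88, FDR = 7.6e-15), and 0 fell in either line. The shares called higher over all genes were 33.4% in Molm13 and 19% in THP1. The members' own changes, at most 0.88 in Molm13 and 0.83 upward in THP1, were smaller than the medians of this reference list, 1.95 and 2.45.

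**Figure D5:**
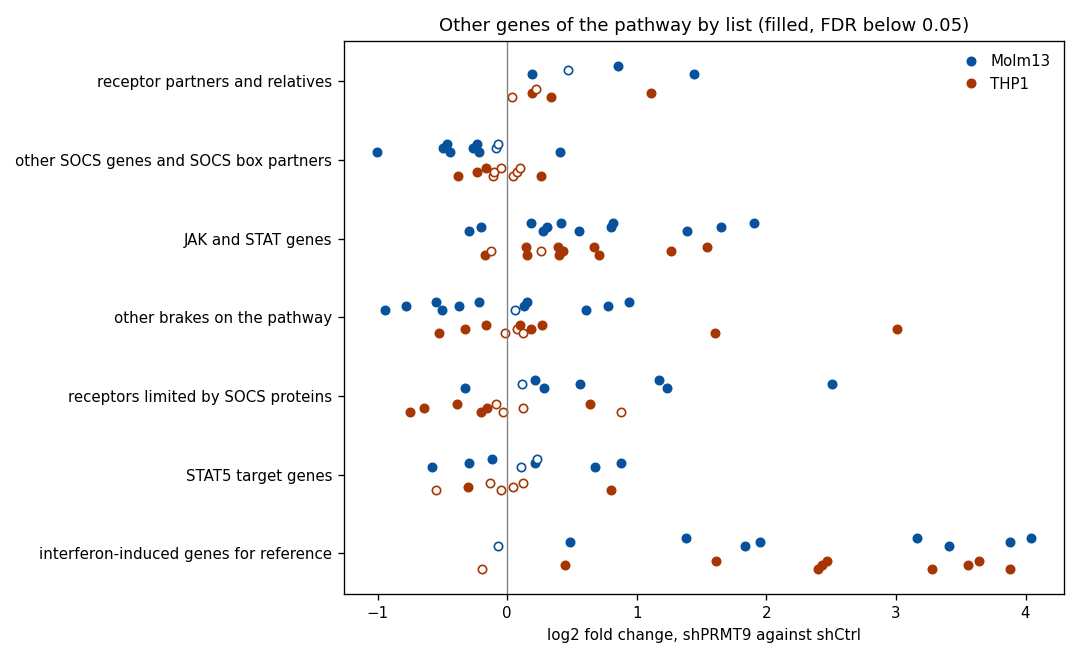
Log2 fold change (x axis) of each testable gene of 7 lists (y axis) for shPRMT9 against shCtrl, with 1 point per gene and line, filled for FDR below 0.05. The JAK and STAT genes and the interferon-induced genes lie mostly right of 0, and the other SOCS genes lie mostly left of 0 in Molm13.

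For the member of largest absolute change in each line, the genes of most similar profile were taken from the 8 libraries as the highest Pearson correlation of log2 CPM. *SOCS3* was closest to *ARFGAP2* (0.978), *TLR6* (0.975) and *DTX2* (0.972) of 19287 genes. *SOCS2* was closest to *SYNPO2* (0.9995), *MFAP4* (0.9994) and *MOB3B* (0.9993). These 8 points fall into 2 lines of 4 libraries, and for *SOCS2* the values follow the gap between the lines.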

How the data were processed

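The authors isolated total RNA with TRIzol, prepared poly(A) libraries (Kapa mRNA HyperPrep) and sequenced them on an Illumina HiSeq system. The submitters' processing notes name TopHat2 2.0.8, HTSeq 0.11.2, edgeR 3.30.3 and hg38; roles and strand setting are not given in the sources used here. The authors deposited 1 table of raw counts for each line, in whole reads on each gene, with exon lengths for Molm13. Of the 8 members, 7 have the same start and end in GENCODE release 29, and *SOCS1* differs; exon lengths are the same for 1, *SOCS3*.

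Counts were analysed in R 4.3.3 with edgeR 4.0.16 (filterByExpr, TMM, quasi-likelihood test, Benjamini-Hochberg adjustment over all genes tested, FDR below 0.05), each line alone. A fit of all 8 libraries gave the difference between the lines, the comparison of controls and the scale of CPM and RPKM. The SE was taken as |log2 fold change| over the root of the F statistic. DESeq2 1.42.0 was an alternative, with other scalings, filters, a replicate block and each library left out. The tests were also run on simulated counts. These held far fewer changed genes than were called here, so that run does not show how the tests perform on these data. The 8 members and the lists were chosen with earlier results of these data known. Besides members and *PRMT9*, the highest and lowest called gene of each list and line was named, except 1 that is not reported here. Motif matches were exact and on both strands.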

Additional observations from a re-analysis of the deposited data

Results flagged for a closer look

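For 5 members, the log2 fold change for shPRMT9 against shCtrl differed between THP1 and Molm13. The test was that of the difference itself in the fit of all 8 libraries (edgeR, FDR below 0.05). The difference of the log2 fold changes, THP1 minus Molm13, was -0.33 for *IFNAR1*, 0.26 for *IFNAR2*, 0.53 for *IFNGR1*, -0.94 for *SOCS2* and -0.29 for *CISH*. Those of *IFNAR1*, *IFNGR1* and *SOCS2* passed under every alternative fit, whereas those of *IFNAR2* and *CISH* did not. Groups of 2 libraries were too small to look for libraries that stand apart.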

How the results depend on the processing

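The direction and call of *IFNAR1* and *IFNGR2* in both lines, *SOCS3* in Molm13, and *IFNAR2*, *IFNGR1* and *SOCS2* in THP1 were the same under every other scaling, filter, fit and test and with each library left out. With DESeq2, 3 members were called in Molm13 in place of 6 and 5 in THP1 in place of 6, with 7844 genes in Molm13 in place of 11008 and 3912 in THP1 in place of 6126. The rule of the study's methods did not call *IFNAR1*, *IFNAR2* and *SOCS2* in THP1; it called 3 members there, 3743 genes in Molm13 and 1013 in THP1. With 1 library left out, 5 to 8 members differed between the control groups, 5 without the second THP1 shCtrl library. The *IFNGR2* difference between the lines, near 0, changed sign with the size factors of DESeq2 (-0.012), library size alone (-0.032) and the DESeq2 test (-0.0084), and ranged from -0.1001 to 0.064 with 1 library left out. With 1 library left out, the *SOCS1* difference ranged from -0.66 to 0.078, the *SOCS3* difference from -0.55 to 0.14 and the *IFNAR2* change in Molm13 from -0.051 to 0.14, and none of these passed. The cause was not tested. Exon lengths of GENCODE release 29, tried after seeing the data, moved levels per length but not fold changes, which use no length.

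The labels do not say what the replicate numbers mark. Same-numbered libraries did not deviate together (correlation -0.037 in Molm13 and -0.059 in THP1), but with 2 libraries per group this check cannot settle it. With the number as a replicate block, 6 members were called in each line, 5 differed between the lines and 7 at baseline, where *IFNGR1* was lost (-0.11, FDR = 0.076), and 10855 genes were called in Molm13, 6054 in THP1, 7960 for the difference and 15039 at baseline. With at most 131 counts per library, changes of *SOCS1* and *SOCS3* in both lines and of *SOCS2* in THP1 had the largest SE, 0.16 to 0.27.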
